A study of Drosophila melanogaster with 8 samples.

Results

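puc, Mmp1, Mmp2 and Ets21C are genes that Jun N-terminal kinase (JNK) signalling is known to switch on in wounded or tumorous Drosophila epithelia. They were followed here as every transcript of theirs that the authors' deposited table lists as changed at least 1.5-fold between wing discs of BEAF-32 mutant and wildtype larvae. There were 5 such transcripts of 4 genes, out of 4379 listed transcripts and 3806 named genes. The members were therefore chosen by their difference between these genotypes. That difference is given below as a description, and nothing is read from whether a member passed the test run over all transcripts.

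RNA came from wing imaginal discs of third-instar Drosophila melanogaster larvae, the epithelial primordia of the wing and part of the thorax, and was measured on 8 one-colour arrays. The wildtype group was Oregon R. The other group was homozygous mutant for BEAF-32, a chromatin-binding boundary protein, and was matched in age. The labels give the strain of both groups as Orgon R, read here as Oregon R, and name no mutant allele, and all mutant samples carry a single genotype description, so the BEAF-32 mutation and any other difference of that stock cannot be told apart. Each genotype had 4 arrays with titles 1_1, 1_2, 2_1 and 2_2, and arrays that share the first number correlated at 0.9977 to 0.9986 across 16637 transcripts. These were averaged, which left 2 replicates per genotype, and each mean below is given ± SD over them (n = 2). The study's design text gives 2 biological and 2 experimental replicates, and arrays that share the first number were read here as the experimental ones. Whether the biological replicates were separate dissections or animals is not stated, so p-values measure only the spread between these samples, which may be technical.

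The BEAF-32 transcript itself read 10.09, 11.94, 10.28 and 10.15 on the wildtype arrays 1_1, 1_2, 2_1 and 2_2, and 8.40 to 8.49 on the mutant arrays, on the log2 scale that all array values here share. It fell by 2.17 (adjusted p = 0.0289 by limma), with no overlap between the genotypes. The transcript of l(2)gl, a tumour suppressor that sets epithelial polarity, lay at 12.80 to 13.25 in wildtype and no more than 0.0448 above the lowest value of each mutant array. Effects of its low level cannot be told apart from effects of the BEAF-32 mutation in these samples.

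JNK is the last kinase of a relay that runs from a TNF ligand and its receptors, or from cell damage and lost polarity, through adaptor proteins and upstream kinases. It phosphorylates the AP-1 transcription factors Jun and Fos, which switch on genes for closing the wound, remodelling the matrix below the epithelium and signalling to neighbouring cells. Among these targets, puc encodes a phosphatase that removes the activating phosphates from JNK and so limits the response, and its transcription is a standard readout of JNK activity. Mmp1 and Mmp2 encode the matrix metalloproteinases of the fly, which cut basement membrane proteins. Ets21C encodes an ETS-family transcription factor that acts with AP-1 in fly tumours.

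The feedback phosphatase gene puc (FBgn0243512, arm 3R, transcript puc-PA) read 11.93, 11.91, 11.91 and 11.78 on the wildtype arrays in the order 1_1, 1_2, 2_1 and 2_2. On the mutant arrays it read 13.04, 13.14, 13.11 and 12.98. Every mutant array was higher than every wildtype array, and the nearest arrays of the genotypes were 1.05 apart. The means were 11.88 ± 0.05 in wildtype and 13.07 ± 0.03 in the mutant, a difference of 1.18 (SE 0.12), or 2.27-fold. In these bulk samples, a change in how many cells of a type were present and a change in RNA per cell cannot be told apart. puc had the smallest spread of the 5 transcripts within each genotype.

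The metalloproteinase gene Mmp1 (FBgn0035049, arm 2R) had 2 listed transcripts. Mmp1-PC read 10.92, 10.99, 10.67 and 10.54 in wildtype and 13.42, 13.34, 13.10 and 13.07 in the mutant. Its genotypes did not overlap, and its means of 10.78 ± 0.25 and 13.23 ± 0.21 differed by 2.45 (SE 0.19), or 5.48-fold. Mmp1-PD read 10.34, 10.25, 10.17 and 9.94 in wildtype and 13.50, 13.36, 12.73 and 12.66 in the mutant. It was also higher on every mutant array, with the mutant replicate 1 arrays highest, and its means of 10.18 ± 0.17 and 13.06 ± 0.52 differed by 2.88 (SE 0.29), or 7.39-fold.

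The Mmp1 transcripts did not differ between genotypes by the same amount. Within an array, PD minus PC lay between -0.74 and -0.50 on the wildtype arrays. It was 0.08 and 0.02 on the arrays of mutant replicate 1, and -0.37 and -0.41 on those of mutant replicate 2. Every mutant array thus stood above every wildtype array in this contrast, by 0.43 on average. Its size depended on the mutant replicate, and with 2 replicates per genotype it was not tested.

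Mmp2 (FBgn0033438, arm 2R, transcript Mmp2-PA), the other metalloproteinase gene, ran the other way. It read 13.08, 13.20, 12.89 and 12.78 in wildtype and 12.52, 12.54, 12.20 and 12.21 in the mutant. The lowest wildtype array and the highest mutant array were 0.23 apart, so the genotypes did not overlap but lay close. The means of 12.98 ± 0.22 and 12.37 ± 0.23 differed by -0.62 (SE 0.19), or 1.53-fold. Taken against the wildtype mean alone, the difference was -0.45 for mutant replicate 1 and -0.78 for mutant replicate 2. Between replicates of the same number it was -0.61 and -0.63, though no label pairs those replicates.

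Ets21C (FBgn0005660, arm 2L, transcript Ets21C-PA), the ETS factor gene, read 8.13, 8.20, 8.26 and 8.25 in wildtype. Those values lay only 0.16 to 0.25 above the lower quartile of all transcripts on the same arrays. The files give no background level, so wildtype Ets21C is not shown to be above background, and every fold against it below may be a lower bound. On the mutant arrays it read 12.18, 11.97, 11.02 and 10.85. The genotypes were 2.59 apart at their nearest arrays, the widest gap of the 5 transcripts. The means of 8.21 ± 0.06 and 11.50 ± 0.81 differed by 3.30 (SE 0.41), or 9.82-fold, which ranked 22nd of 16637 among differences towards higher values in the mutant. Mmp1-PD ranked 46th, Mmp1-PC 83rd and puc 532nd in that direction.

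**Figure D1:**
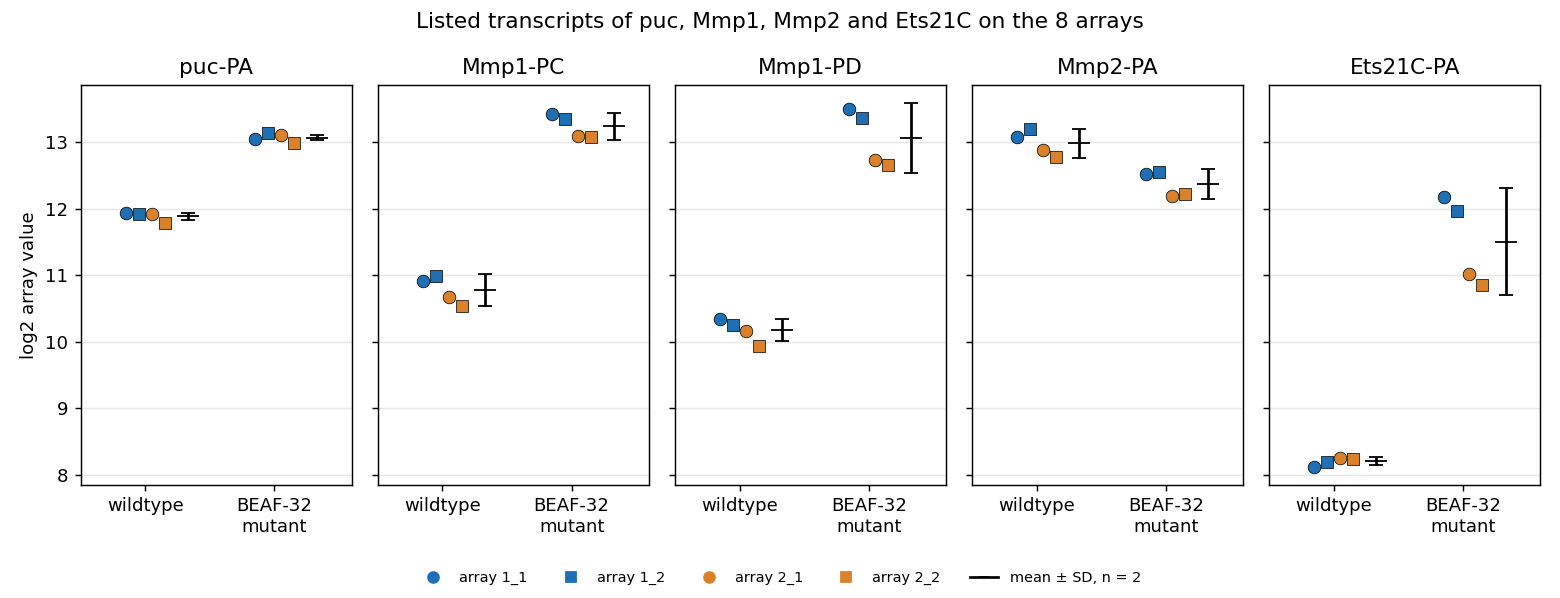
Log2 array values (y axis) of the 5 listed transcripts of puc, Mmp1, Mmp2 and Ets21C in wildtype and BEAF-32 mutant wing discs. Points are single arrays, coloured by the first number of the title and shaped by the second, and bars are the mean ± SD of 2 averaged replicates. The mutant arrays lie above the wildtype arrays in 4 panels and below them for Mmp2-PA, and Ets21C-PA separates the mutant replicates most.

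Of the 5 transcripts, 4 were higher and 1 was lower in the mutant, and 5 had no overlap between the arrays of the genotypes. Arrays did not overlap for 51.1% of all transcripts (26.8% with the mutant higher and 24.4% with the mutant lower). By limma, fitted over all 16637 transcripts, 4 of the 5 were called at an adjusted p under 0.05 and Mmp2-PA was not. The same call was made for 9.97% of all transcripts, 647 higher (3.89%) and 1012 lower (6.08%). Since the members were picked by this contrast, these counts are given as a description. The authors' deposited table gives Mmp2-PA a fold of 1.53 in favour of wildtype, the nearest of the 5 to the limit of 1.5. Transcripts of these 4 genes outside that limit carry no name in the value table and are not analysed here.

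The members were chosen by their mean difference between genotypes and not by the spread between the mutant replicates, though the same mutant values enter both. The 5 transcripts varied in that spread. Over all transcripts the mutant replicates differed by a median of 0.122 in size. The shares below are of all transcripts, and shares among the listed transcripts alone were not computed. The replicate 1 mean of Ets21C-PA exceeded its replicate 2 mean by 1.14, a size that 129 of 16637 transcripts (0.775%) reached. For Mmp1-PD the difference was 0.74, reached by 343 transcripts (2.06%). It was 0.32 for Mmp2-PA (14.7% of transcripts reached that size), 0.30 for Mmp1-PC (17.2%) and 0.05 for puc-PA (78.1%). Against the same wildtype mean, the measured values of Ets21C-PA stood 14.6-fold higher in mutant replicate 1 and 6.61-fold higher in mutant replicate 2, with the limit on its wildtype level given above, and Mmp1-PD 9.54-fold and 5.72-fold. puc-PA stood 2.31-fold and 2.23-fold higher.

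The arrays that share a first number differed by at most 0.225 for each of the 5 transcripts, and the mutant replicates differed by more than that in Ets21C-PA, Mmp1-PD, Mmp2-PA and Mmp1-PC, though not in puc-PA. The wildtype replicates differed by 0.09 in Ets21C-PA and by 0.24 in Mmp1-PD, against a median size of 0.258 over all transcripts. The same mutant replicates differed in fat body markers, and by less in markers of other tissues. Summed linear array values of 12 fat body markers averaged 33943 in mutant replicate 1 and 59482 in replicate 2. Those of 12 haemocyte markers averaged 61017 and 57774, those of 12 wing disc markers 32634.5 and 29533.1, and those of 12 salivary gland markers 14318 and 12641.5. The part of these tissues in the spread of Ets21C and Mmp1 was not tested.

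**Figure D2:**
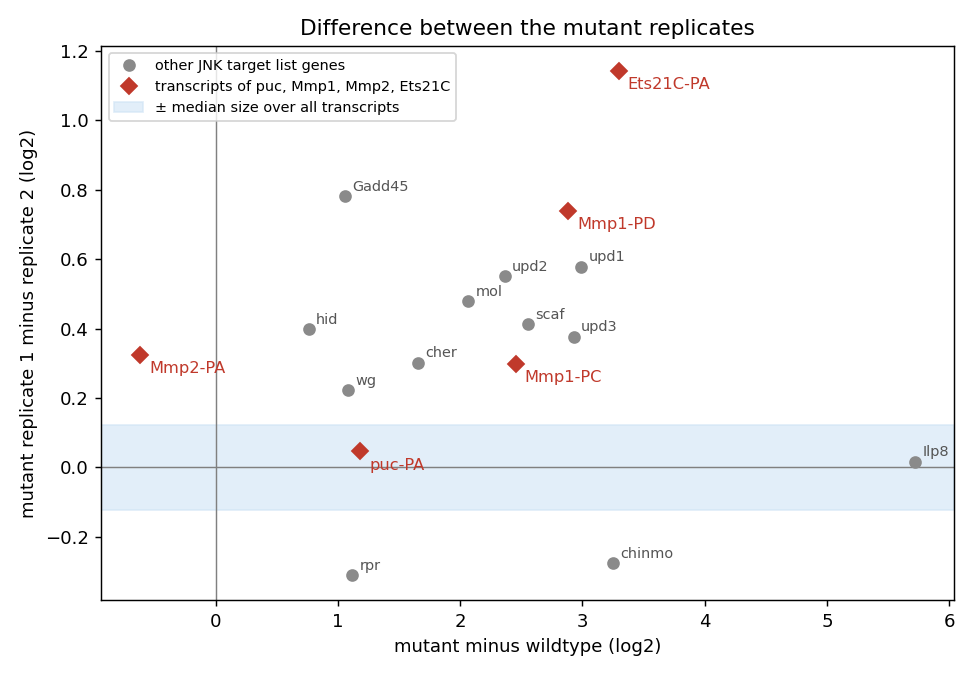
Difference between the mutant replicates (replicate 1 minus replicate 2, log2, y axis) against the difference between genotypes (mutant minus wildtype, log2, x axis) for the 5 transcripts (red) and the other named genes of the JNK target list (grey). The band spans ± 0.122, the median size of the replicate difference over all transcripts. Ets21C-PA at 1.14 and Mmp1-PD at 0.74 lie far above it, and puc-PA lies inside it.

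Other genes listed as JNK targets stood higher in the same mutant samples. A list of 20 genes, drawn up for this report as JNK targets in wounds and tumours, held 16 with a name here. Whether JNK controls each of them in these discs was not tested. This list and those below were chosen with earlier results of these data known, so their counts are a description and not independent support. Leaving out puc, Mmp1, Mmp2 and Ets21C, 12 of 16 were named. Of those 12 genes 9 rose, 3 did not pass limma's test and 0 fell. Named genes had to differ at least 1.5-fold to be listed, and of all named genes 36.3% were called (13.7% higher and 22.6% lower). As a description, the median difference of the 12 genes was 2.22, against 0.06 over all transcripts and 0.00 over all named genes.

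The secreted signals of that list included Ilp8, an insulin-like peptide that delays metamorphosis after disc damage, which rose by 5.72 (adjusted p = 0.0031). All 3 genes for the unpaired cytokines, the ligands of JAK/STAT signalling, rose: upd1, listed under its older name os, by 2.99 (adjusted p = 0.011), upd3 by 2.93 (adjusted p = 0.00899) and upd2 by 2.37 (adjusted p = 0.018). The Wingless ligand gene wg rose by 1.08 (adjusted p = 0.032). For upd1 the wildtype mean was 8.04 ± 0.03 and the mutant mean 11.03 ± 0.41. The wildtype means of upd1, Ilp8 (7.85) and upd2 (8.13) lay below that of Ets21C (8.21), so they too are not shown to be above background. The same limit holds for every gene below with a wildtype level as low as that of Ets21C.

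Among the other targets, scaf (scarface), a secreted serine protease homologue, rose by 2.55 (adjusted p = 0.012) and cher, the actin crosslinker filamin, by 1.66 (adjusted p = 0.0298). mol, a maturation factor for the peroxide-producing enzyme Duox, rose by 2.07 (adjusted p = 0.018) and the transcriptional regulator gene chinmo by 3.25 (adjusted p = 0.023), with a difference of 4.22 for its other listed transcript. The genes that did not pass were the cell death activators rpr at 1.12 (adjusted p = 0.054) and hid at 0.76 (adjusted p = 0.10), and the stress gene Gadd45 at 1.06 (adjusted p = 0.11). In this list, with puc, Mmp1, Mmp2 and Ets21C included, 14 of 16 named genes read higher in mutant replicate 1 than in replicate 2. Among them were Gadd45 by 0.78, upd1 by 0.58 and upd2 by 0.55. Over all transcripts 49.1% did so. The share varied between the lists described below. It was 10 of 12 named wing disc markers, 10 of 14 basement membrane genes and 9 of 12 haemocyte markers. For tracheal markers it was 3 of 7 and for fat body markers 2 of 12.

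Of 25 genes fixed for the JNK relay itself, 7 were named. Leaving out puc, 5 rose and 1 fell. The bZIP factor gene Atf3, whose product pairs with Jun, rose from 10.19 ± 0.25 to 12.37 ± 0.06 (difference 2.18, adjusted p = 0.012). The adaptor gene Traf4, which links TNF receptors to the relay, rose by 1.75 (adjusted p = 0.029), and kay, the Fos gene, by 1.31 (adjusted p = 0.039). raw, a restraint on JNK signalling in the embryonic epidermis, rose by 1.34 (adjusted p = 0.021). The Src kinase genes split: Src42A, listed under the older name CG14471, rose by 1.52 (adjusted p = 0.016) and Src64B fell by 1.27 (adjusted p = 0.045).

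The 18 unnamed genes of the relay list include the TNF ligand gene egr, its receptors wgn and grnd, the kinases msn, Tak1, slpr, hep and bsk (JNK), and Jra (Jun). A gene without a name here may have differed by less than 1.5-fold or have no probe on the array. It may also be among the 2 transcripts past 1.5-fold that the authors' table does not list, or stand there under an older name that was not matched. These cannot be told apart. Without mutant replicate 1 limma called 0 genes in both JNK lists, with 7 of the relay list and 14 of the target list at an unadjusted p under 0.05. Without mutant replicate 2 it called 0 and 1, with 7 and 15 at an unadjusted p under 0.05. Over all transcripts these fits called 0 without mutant replicate 1, and 3 higher and 18 lower without mutant replicate 2, with 2353 and 2432 at an unadjusted p under 0.05. In both, the lone mutant replicate was assumed to vary like the wildtype. Without wildtype replicate 1 Src64B was not called.

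The basement membrane that the metalloproteinases cut was followed with a list of 22 genes, of which 14 were named. Leaving out Mmp1 and Mmp2, 5 of 12 rose, 1 fell and 6 did not pass. Timp, the secreted inhibitor of both fly metalloproteinases, rose from 11.20 ± 0.33 to 12.60 ± 0.03 (difference 1.40, adjusted p = 0.0304). Reck, whose mammalian counterpart is a membrane-anchored metalloproteinase inhibitor, fell from 11.19 ± 0.02 to 10.30 ± 0.13 (adjusted p = 0.031). Mmp1 and Timp were thus higher, and Reck and Mmp2, which limma did not call, lower, on all mutant arrays. Such separation of the arrays, in either direction, held for 51.1% of all transcripts.

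Among structural genes, the collagen IV chain genes vkg rose by 2.33 (adjusted p = 0.021) and Col4a1 by 1.96 (adjusted p = 0.045). The laminin chain gene wb rose by 1.59 (adjusted p = 0.044) in the transcript with the higher mean, with a difference of 0.62 in its other listed transcript, and Loxl2, a lysyl oxidase that crosslinks matrix, by 1.51 (adjusted p = 0.021). The perlecan gene trol at 1.62 (adjusted p = 0.081), the collagen-binding SPARC at 1.32 (adjusted p = 0.068), the tiggrin gene Tig at 1.16 (adjusted p = 0.16), the peroxidasin gene Pxn at 1.03 (adjusted p = 0.21), the papilin gene Ppn at 0.81 (adjusted p = 0.13) and the ADAM protease gene kuz at -1.72 (adjusted p = 0.16) did not pass. Without wildtype replicate 1 the whole list had 11 higher and 2 lower calls instead of 6 and 1, without wildtype replicate 2 it had 8 and 2, and without mutant replicate 1 or mutant replicate 2 it had 0. In those fits without mutant replicate 1 or 2, 10 and 9 genes had an unadjusted p under 0.05.

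Haemocytes make collagen IV and attach to discs, and markers of these blood cells were higher in the same mutant samples. Of 19 haemocyte markers 12 were named, 8 of them rose and 4 did not pass, though all 12 had higher means in the mutant. Examples are Sr-CI, for a scavenger receptor (difference 1.53, adjusted p = 0.012), and NimC4, a phagocytic receptor gene that went from 7.82 ± 0.27 to 9.83 ± 0.19 (adjusted p = 0.017). vkg, Col4a1, Pxn and Ppn stand on both lists. Those that did not pass were Hml, Pxn, drpr and Ppn. The haemocyte markers eater, crq, srp, lz, gcm, He and ush have no name here. The summed array values of the 12 named markers were 17584 to 26223 in wildtype and 56373 to 61064 in the mutant. Named markers had to differ at least 1.5-fold, so these sums and those below leave out markers that differed less. Tracheal markers summed to 25545 to 27822 in wildtype and 57267 to 61776 in the mutant, and 5 of 7 named of 15 rose. Among these were the chitin deacetylase genes serp at 1.33 and verm at 1.31. Also counted was bnl at 2.94, an FGF ligand gene that is not particular to tracheal cells. The gene dys fell by 1.70 (adjusted p = 0.0156), and btl and trh have no name here. The part of these cells in the levels of puc, Mmp1, Mmp2 and Ets21C was not tested.

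The summed levels of the named markers of the other tissue lists were lower in the mutant, though single markers were higher. Markers that differed by less than 1.5-fold are not in these sums, so the sums do not measure amounts of tissue. Salivary gland markers summed to 206543 to 228339 in wildtype and 12512 to 14497 in the mutant, with 12 of 12 named of 17 fallen, led by the glue protein genes Sgs5 (-7.50) and Sgs7 (-7.05). Fat body markers summed to 155627 to 162377 and 33574 to 59990, with 4 of 12 named of 16 fallen (Fbp1 at -6.21, Fbp2, Lsp1alpha and Acbp1) and 0 risen. Higher there without passing were the fatty acid synthase gene FASN1 (2.49, adjusted p = 0.0805), larp (1.03), which is not particular to fat body, and Yp1 (0.64). Of the muscle list 3 of 6 named genes fell (htl, TpnC73F and wupA), and of the neural list 1 of 2 (sc). The muscle gene sls was higher without passing (1.61, adjusted p = 0.0945). Among markers of the wing disc itself 12 of 26 were named, of which 1 rose (wg) and 4 fell (bs, ara, mirr and hh). rn (1.47, adjusted p = 0.209) and Antp (0.69, adjusted p = 0.126) were higher without passing. The lower calls numbered 9 with averaging by the second number, separate arrays, a random block or a replicate block on the first number, 8 with a trended robust prior and 7 with dim transcripts left out. Their sum was 39346 to 47250 in wildtype and 29294 to 33053 in the mutant. vg, sd and nub, which define the wing field, have no name here. Without mutant replicate 1 no marker of any tissue was called. Without mutant replicate 2 the calls were 5 salivary gland and 2 fat body markers, all lower. Without wildtype replicate 2, 7 wing disc, 5 muscle and 2 neural markers were called lower. Leaving out wildtype replicate 1, and likewise wildtype replicate 2, gave 2 fat body markers and 1 muscle marker called higher.

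**Figure D3:**
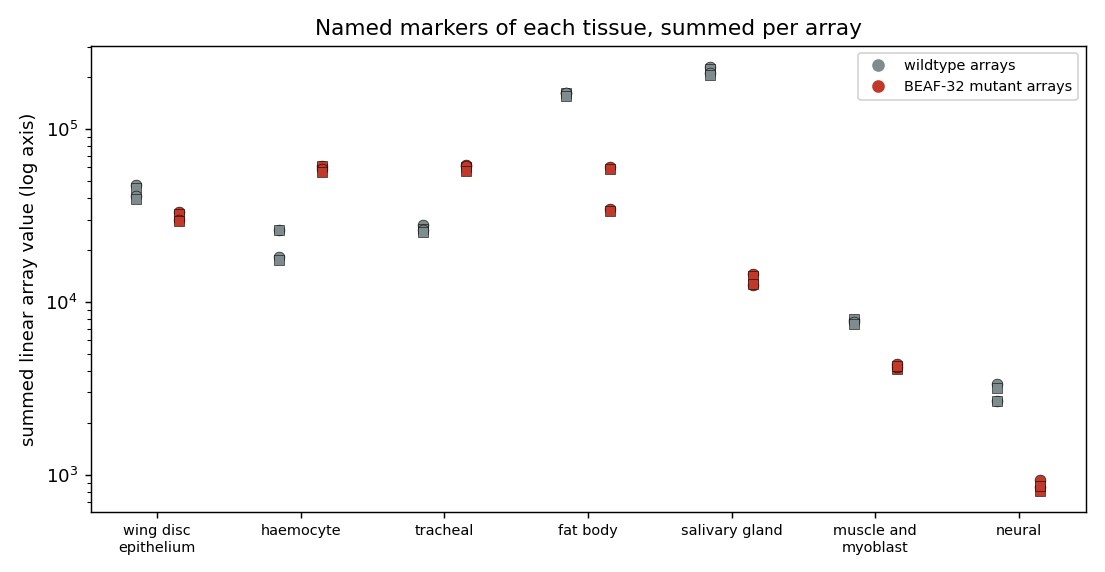
Summed linear array values (log y axis) of the named markers of each tissue list on the 4 wildtype and 4 mutant arrays. Named markers had to differ at least 1.5-fold between the genotypes, so markers that differed less are left out. Point shapes follow the second number of the array title. Haemocyte and tracheal sums are higher on all mutant arrays, and fat body, salivary gland, muscle, neural and wing disc sums are lower.

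Of 8 ETS factor genes 4 were named, and Ets21C had the largest difference of them. Ets98B at 0.82 (adjusted p = 0.0897), pnt at 0.80 (adjusted p = 0.23) and aop at 0.63 (adjusted p = 0.082) were higher in the mutant and did not pass. Of 20 bZIP factor genes, the family of Jun and Fos, 14 were named, 7 rose and 3 fell. The risers beside Atf3 and kay were the stress factor genes Irbp18 (1.72, adjusted p = 0.016), Xrp1 (1.10, adjusted p = 0.026), REPTOR (1.18, adjusted p = 0.018) and REPTOR-BP (1.49, adjusted p = 0.016), and the gap gene gt (0.75, adjusted p = 0.043). CrebA, a regulator of secretory genes, fell by 1.18 (adjusted p = 0.032), as did Atf6 (-1.04, adjusted p = 0.031) and maf-S (-0.98, adjusted p = 0.042). Leaving out mutant replicate 1 or mutant replicate 2, no ETS or bZIP gene was called, and without wildtype replicate 1 a second ETS gene was.

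puc was compared with other MAP kinase genes. Of 12 phosphatase and kinase genes of the ERK and p38 branches, puc included, 3 were named. Mkp3, the ERK phosphatase gene, differed by 0.85 (adjusted p = 0.059) and p38a by 0.62 (adjusted p = 0.061), and neither passed. Of 16 genes of the epidermal wound response 7 were named, 3 rose and 4 did not pass. The risers were Src42A and the NF-kappaB genes Dif (3.13, adjusted p = 0.0104) and dl (1.15, adjusted p = 0.023). Ddc and ple, which make the catecholamines that harden wounded cuticle, did not pass (adjusted p = 0.27 and 0.23), with mutant replicate 1 above replicate 2 by 2.03 and 1.95. Leaving out mutant replicate 1 or mutant replicate 2, no gene of these lists was called, and without wildtype replicate 1 and 2 the MAP kinase list had 2 and 3 calls, all higher.

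**Figure D4:**
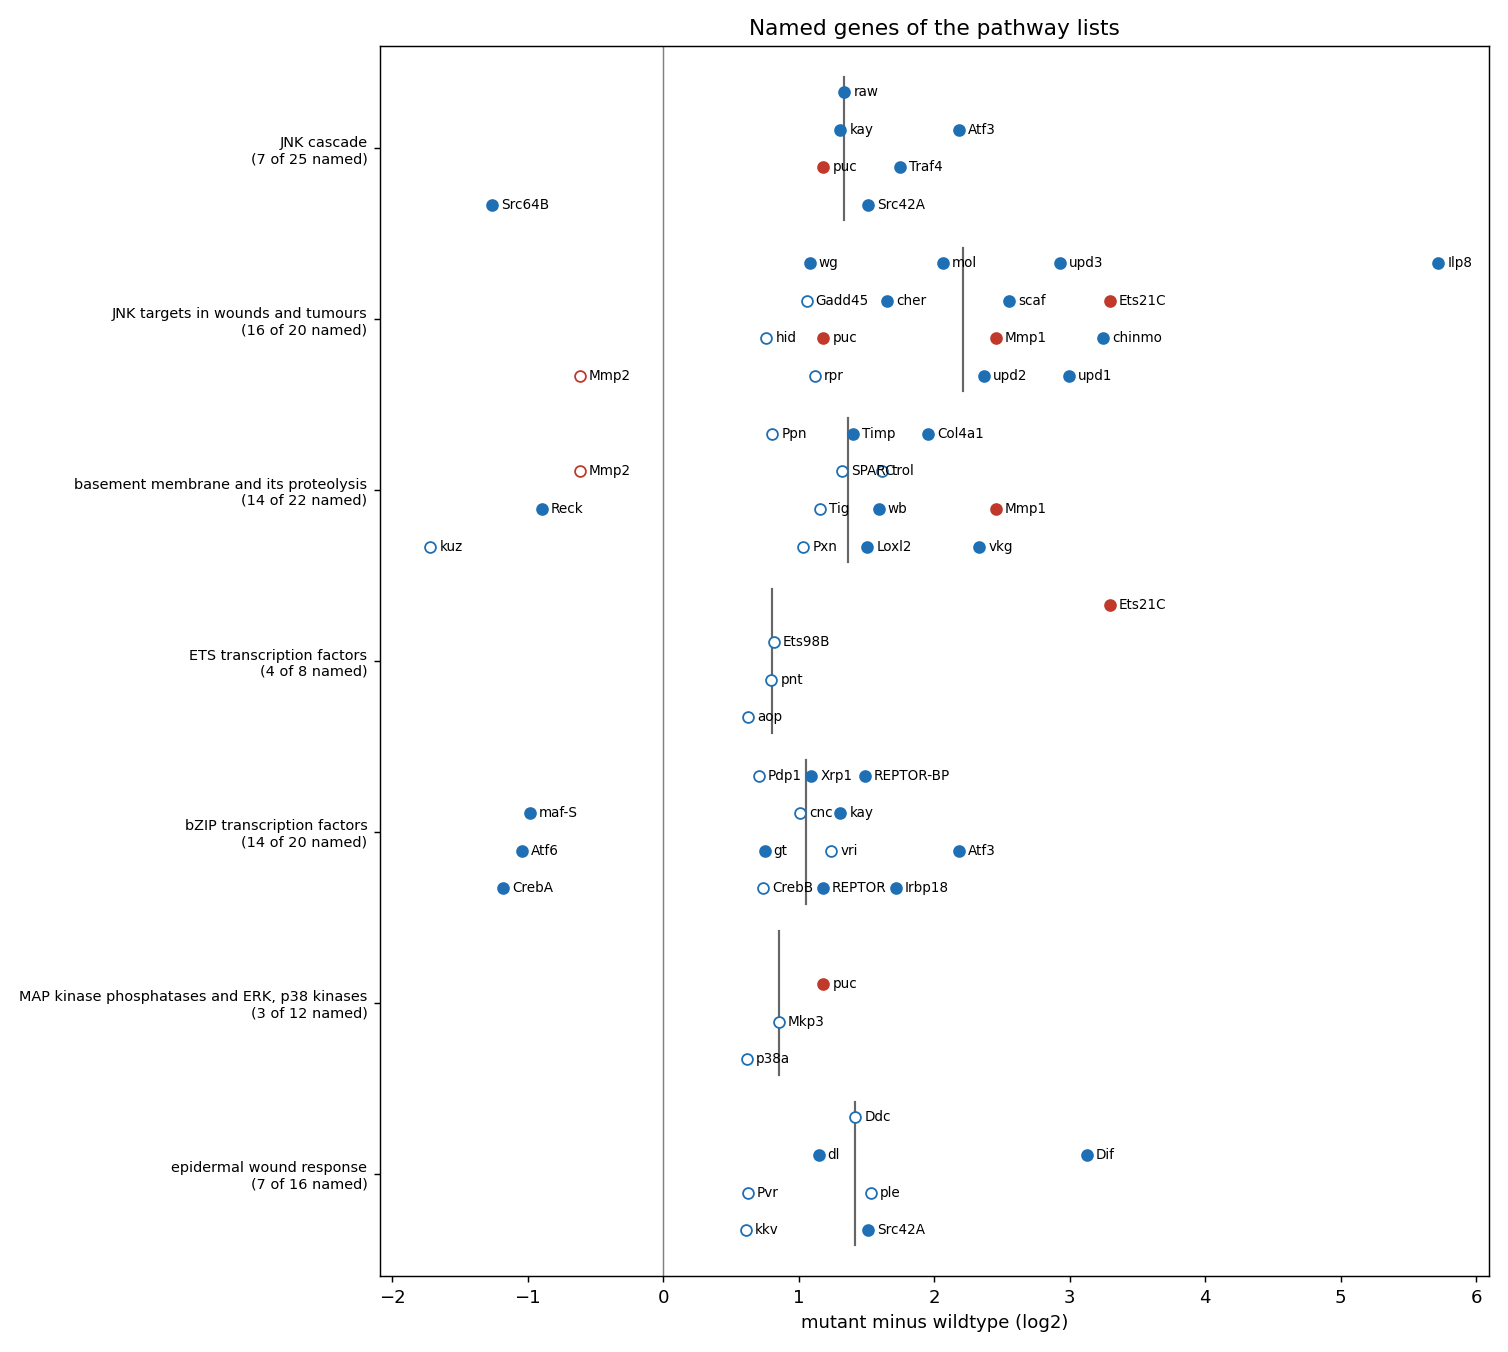
Difference between genotypes (mutant minus wildtype, log2, x axis) for the named genes of 7 lists (y axis, with the number named of the number on the list). Filled points passed limma at an adjusted p under 0.05 and open points did not, red points are puc, Mmp1, Mmp2 and Ets21C, and vertical bars are list medians. In the JNK target list Mmp2 is the only named gene below 0, and with each gene shown by its listed transcript of highest mean, Ets21C is second to Ilp8.

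Genes with the most similar pattern were found by the Euclidean distance between values on the 8 arrays, each gene centred on its own mean, among 2188 other named genes with a symbol. Nearest to puc-PA were the growth regulator gene Myc (distance 0.193), REPTOR (0.198) and Reg-5 (0.201). Nearest to Mmp1-PC were scaf (0.306), the chitinase gene Cht6 (0.325) and moody, which encodes a receptor of the blood-brain barrier (0.347). Nearest to Mmp1-PD were Cyp18a1, which encodes an ecdysone-inactivating enzyme (0.263), the lipid phosphatase gene wun2 (0.389) and upd1 (0.427).

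Cyp18a1 (0.680) and upd1 (0.752) were also nearest to Ets21C-PA, followed by bdl (0.869). Nearest to Mmp2-PA were Nelf-E, a subunit of the factor that pauses RNA polymerase (0.166), the ubiquitin-like gene UBL3 (0.168) and the nuclear receptor gene Hr39 (0.199). These distances describe 8 arrays of 2 genotypes and follow mainly the size of the genotype difference. Among the 15 entries, scaf and upd1 are on the JNK target list.

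Genome neighbours were taken from the order of protein-coding genes in the RefSeq annotation, 2 on each side of each gene. Of 16 neighbours 5 were named. The annotated span of nAChRbeta3, a nicotinic receptor subunit gene, overlaps that of Ets21C. Its transcript PB read 7.42, 7.37, 7.48 and 7.43 in wildtype and 11.06, 11.08, 10.81 and 10.80 in the mutant, and rose by 3.51 (adjusted p = 0.0053). Its transcript PA rose by 1.57 (adjusted p = 0.015). The mutant replicates of transcript PB differed by 0.27, against 1.14 for Ets21C-PA. The sources used here do not give probe positions or strand, so signal from these overlapping genes cannot be told apart.

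The other neighbours of Ets21C with a name were Spp, a signal peptide peptidase gene, which fell by 1.15 (adjusted p = 0.031), and the intraflagellar transport gene rempA, which rose by 0.78 (adjusted p = 0.037). Pof, which encodes a chromosome-binding protein and whose span overlaps that of Mmp1, fell by 1.07 (adjusted p = 0.033), and the sialyltransferase gene SiaT on the other side of Mmp1 was at 0.94 (adjusted p = 0.15). The 4 neighbours of puc and the 4 of Mmp2 had no name here.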

How the data were processed

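Per the labels' protocols, cDNA was primed with oligo-dT and carried Cy3 on NimbleGen arrays. The authors deposited log2 values, 1 per transcript and array. The submitters' processing notes name RMA and Partek and give no versions. The sources used here give neither genome build nor probe design. Array medians were 9.36 to 9.43, and precision is limited by how few arrays there are. The authors' deposited table gives, per its header, a ratio of wildtype over mutant and a signed fold score, opposite in sign to the differences here; its ratios match the value table within 7.8e-05 on the log2 scale. It lists 4379 of the 4381 transcripts past 1.5-fold.

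Gene names of the deposited table were looked up in RefSeq, assembly Release 6 plus ISO1 MT: 2541 matched a symbol and 1079 a synonym, with 4 set by hand after the data were seen (scarface, os, W and Bc) and 226 kept. RefSeq served for names, arms and gene order only. limma 3.58.1 in R 4.3.3 (lmFit, eBayes, genotype as the only term) was fitted to 2 averaged replicates per genotype over 16637 transcripts, and p-values were adjusted by Benjamini-Hochberg (threshold 0.05), after testing on simulated data. "Rose" and "fell" are used for genes past that threshold. A gene is its listed transcript with the highest mean. From each list up to 4 passing genes by adjusted p were to be named, or 2 by p where none passed; all other genes were named after their values were seen, and neighbours by position. Members and lists were chosen with earlier results of these data known. Python 3.11.15 drew the figures with matplotlib 3.10.9. Sequences were not used here.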

Additional observations from a re-analysis of the deposited data

Results flagged for a closer look

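In groups of 4 arrays, 1 array stood far from the other arrays of its genotype in 9 of 266 groups checked (133 transcripts of the lists, neighbours and similar genes, each in both genotypes), where chance gives about 1 in 20 for independent values. The 4 arrays are 2 closely correlated pairs, so that rate need not hold here. Of the 5 transcripts followed here this concerned puc-PA, where wildtype array 2_2 read 11.78 and the next array 11.91. The targeted gene BEAF-32 read 11.94 on wildtype array 1_2, against 10.28 on the next. Atf3 read 12.23 on mutant array 1_1 and REPTOR-BP 9.31 on wildtype array 2_1. mirr read 11.31 on wildtype array 2_1, and on wildtype array 1_2 Sr-CI read 11.67 and the tracheal marker verm 12.98. The salivary gland marker Sgs1 read 8.12 and nAChRbeta3 transcript PA 9.20 on mutant array 2_1. No effect of these arrays on other genes was tested.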

How the results depend on the processing

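The differences of the 5 transcripts kept their direction under all 13 alternatives that applied to each, and 63 of 64 values moved by less than the spread between replicates. The exception was puc-PA, at 1.24 after quantile normalization. For most of the 64 values this outcome was fixed in advance. Other averaging, separate arrays, blocks, another prior or another set of transcripts leave a difference as it was. Leaving out 1 replicate moves it only by part of the gap between replicates. Only quantile normalization and centring on array medians could move it otherwise. Leaving out 1 replicate gave 1.15 to 1.22 for puc-PA, 2.28 to 2.63 for Mmp1-PC, 2.52 to 3.25 for Mmp1-PD, -0.78 to -0.45 for Mmp2-PA and 2.72 to 3.87 for Ets21C-PA. Mmp1-PD has no value with 1 feature per named gene. Against 647 higher and 1012 lower transcripts, averaging by the second number gave 7148 and 5744, 8 separate arrays 4203 and 3963, a random block on the first number 1730 and 2178, a trended robust prior 983 higher, and leaving out 1 replicate 0 to 2685 higher and 0 to 2648 lower. With averaging by the second number, separate arrays and the random block alike, 1 gene of the JNK target list (Mmp2) was called lower and 3 basement membrane genes lower, and 11 basement membrane genes were called higher with averaging by the second number and with separate arrays. The replicate numbers are shared by both genotypes, and same-numbered replicates deviated together (correlation 0.30), but with 2 numbers and no label that pairs them they were not taken as pairs. With the first number as a replicate block, 1011 transcripts were higher and 10 basement membrane genes were called higher. With 1 feature per named gene 0 genes of the JNK relay list were called lower. Leaving out 1 replicate gave 0 to 6 higher and 0 to 1 lower in the relay list, 0 to 13 higher in the target list, and 0 to 11 higher and 0 to 2 lower in the basement membrane list. For the other lists 204 of 286 counts stayed within 1.5 times, 54 were larger and 28 smaller. The cause was not tested. Background correction could not be varied from summarised values.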
